A study of Rattus norvegicus with 12 samples.

Results

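Interferon-stimulated genes were followed in the lungs of rats with monocrotaline (MCT) pulmonary hypertension. The list held 40 gene symbols, chosen by name for their known induction by interferon, and 39 of them had a row in the deposited tables. Tap2 had 2 gene models, so that 40 gene models were measured of 19687 in any of the tables and 16957 in all 3 tables. All 40 gene models passed the filter on low counts in each comparison, whereas the expression of Xaf1 was not analysed here and only its promoter was read. Lung tissue came from male Sprague-Dawley rats of the MCT model that were 9 weeks old, with 3 rats and 3 libraries in each of 4 groups. Every rat, controls included, had received MCT, a plant toxin that injures the pulmonary endothelium, at 60 mg/kg. The groups received PBS as vehicle, angiotensin II (AngII, the endogenous agonist of the angiotensin II type 1 receptor) at 1 mg/kg/day, TRV023 (a peptide that engages β-arrestin at that receptor with little G protein activation) at 14.4 mg/kg/day or losartan (a receptor antagonist) at 10 mg/kg/day. Osmotic pumps delivered the drugs, for hemodynamics and histology from 1 week after MCT and for 2 weeks, and no separate schedule is stated for the sequenced lungs. No rats without MCT were among the samples used here, so the levels below have no healthy reference.

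Libraries are named by group and by the number in their label, which is read here as the animal number. Total counts were 16106337 to 20096877 per library, and genes of the mitochondrial genome took 9.62% to 12.3% of the counts with AngII and 4.36% to 10.02% in the other groups. The type 2 cell marker Sftpc, which defines the lung, stood at 5224 to 16391 FPKM (fragments per kilobase of gene, scaled to the library total). In such pieces of whole lung, fewer cells of a type and less RNA per cell cannot be told apart. The mean of 7 leukocyte markers, as the log2 CPM (counts scaled to library size) difference from the mean of the 12 libraries, was 0.12 to 0.28 with AngII, −0.16 to 0.03 in vehicle, −0.21 to 0.28 with TRV023 and −0.44 to 0.05 with losartan. Their part in the results below was not tested.

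Interferons are secreted when pattern recognition receptors sense foreign or displaced nucleic acid. Type I interferons signal through Jak kinases to a complex with Stat2 and Irf9 that binds the interferon-stimulated response element (ISRE), and interferon gamma acts on genes that carry the gamma-activated site (GAS). The genes so induced encode sensors and factors that amplify the response, proteins that block viral replication, ubiquitin-like modifiers and the machinery of antigen presentation. Lung macrophages, dendritic cells, endothelium and epithelium can all express them.

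The response element could be read in the promoters of these genes. RefSeq promoters of the rat build GRCr8, from 250 bases before to 50 bases after each gene start, matched 31 of the 40 symbols. There was no entry for Isg15, Mx2, Ifit1, Ifit2, Usp18, Ddx58, Dhx58, Zbp1 and Nlrc5. The core of the ISRE was searched as GAAANNGAAA on both strands, the second strand reading TTTCNNTTTC. It was present in 19 of the 31 promoters (61.3%), against 1312 of 33469 promoters of the same length (3.92%). The core of the GAS, TTCNNNGAA, reads alike on both strands. It was present in 8 of the 31 (25.8%) against 8.87% of all promoters, 4 members held both motifs, and 8 held neither. A match is a run of letters and not a measured binding site. Sequence upstream of the start is shown for 4 genes to which the comparisons below return, and for Oas1a and Ifit3 as antiviral genes with the same element, with the ISRE cores in capitals.

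Irf7: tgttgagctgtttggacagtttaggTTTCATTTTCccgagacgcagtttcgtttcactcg
Bst2: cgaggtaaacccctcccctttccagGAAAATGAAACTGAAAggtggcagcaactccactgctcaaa
Tap1: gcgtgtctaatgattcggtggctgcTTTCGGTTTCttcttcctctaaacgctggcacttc
Tap2: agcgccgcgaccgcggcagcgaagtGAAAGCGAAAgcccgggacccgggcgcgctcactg
Oas1a: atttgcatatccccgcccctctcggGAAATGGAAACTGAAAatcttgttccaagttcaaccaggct
Ifit3: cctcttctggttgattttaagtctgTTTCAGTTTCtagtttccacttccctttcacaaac

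In GRCr8 the Irf7 stretch lies at chr1:205800058-205800117 on the minus strand and the Bst2 stretch at chr16:18255058-18255123 on the minus strand. The Tap1 stretch lies at chr20:4668630-4668689 and the Tap2 stretch at chr20:4652303-4652362, both on the minus strand. The Oas1a stretch lies at chr12:41330400-41330465 and the Ifit3 stretch at chr1:241527257-241527316, both on the plus strand. Bst2 and Oas1a each carried 2 overlapping cores, counted as 2 matches. The other promoters with a match ending before the start were those of Isg20, Rsad2, Ifih1, Ifi27, Ifi44, Ifi44l, Gbp2, Gbp5, Parp14, Eif2ak2, Lgals3bp and Xaf1, and the match of Dtx3l lay after the start. For the fold changes Xaf1 dropped out, and the single Tap2 promoter stood for both Tap2 gene models, which again gave 19. The Tap2 promoter lies near that of Tap1 on the same strand. In the deposited coordinates the Tap2 model ENSRNOG00000000455 likewise lies next to Tap1 on the same strand. The Tap2 model ENSRNOG00000046031 lies apart on the other strand of chromosome 20, so its place among the 19 rests on the symbol alone. Which model the promoter belongs to was not tested. The median log2 fold change of the 19 gene models with a core was 0.02 with AngII, 0.05 with TRV023 and −0.01 with losartan. That of the 12 models without a core was −0.02, −0.17 and −0.09. Herc6, to which the comparisons also return, held neither motif in this window.

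**Figure D1:**
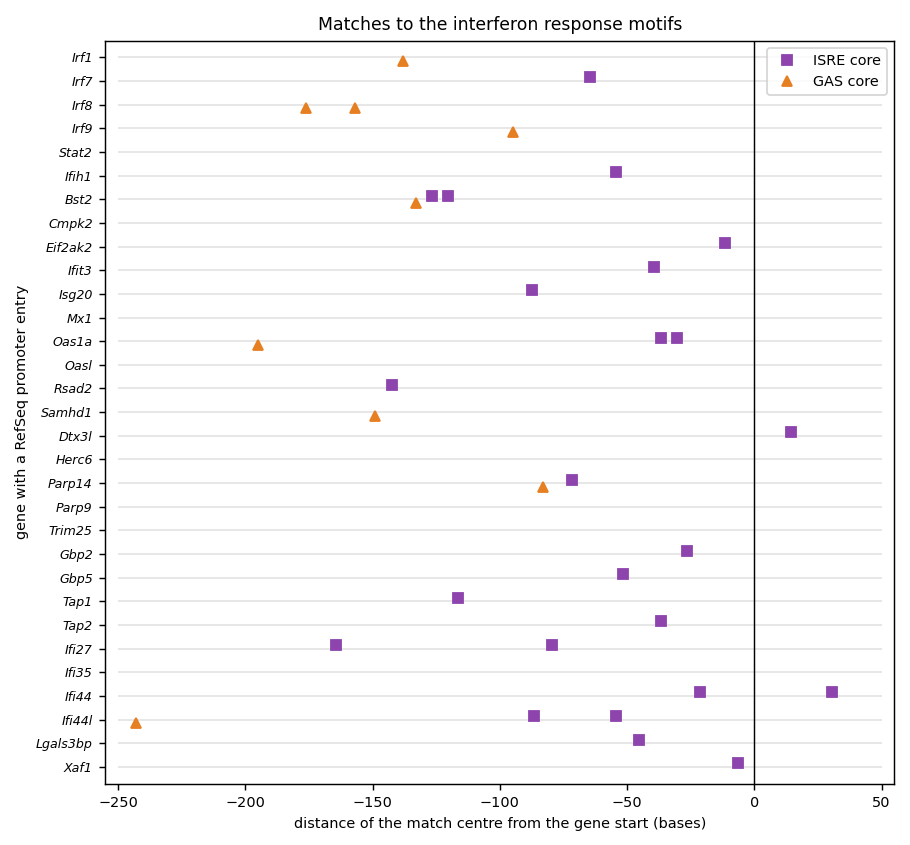
Position of each motif match in the 31 promoters, as the distance in bases of the match centre from the gene start (x axis), with squares for the ISRE core and triangles for the GAS core. In 18 promoters at least 1 ISRE match lay before the start, Ifi44 had a further match after it, and the match of Dtx3l lay only after it.

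The levels of the 40 gene models covered a wide range. Median FPKM over the 12 libraries was 10 or more for 19 models and lower for 21. Ifi27, a small mitochondrial protein, had the highest median (577 FPKM). It was followed by Bst2, or tetherin, which holds budding virus at the cell surface (285 FPKM). Ifit1, which binds foreign RNA caps, had the lowest (1.30 FPKM, from 5 to 213 counts per library), and its values rest on few reads in several libraries.

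Among the factors of transcription the medians were close together. They ran from 24.9 FPKM for Irf7, which amplifies the type I response, to 35.9 FPKM for Irf1, with Irf8, Irf9 and Stat2 between them. The 4 cytoplasmic sensors were low, with medians of 2.03 FPKM for Zbp1, a sensor of Z-form nucleic acid, to 7.52 FPKM for Dhx58, a regulator of the RNA sensors Ddx58 (RIG-I) and Ifih1 (MDA5). Among the ubiquitin and ADP-ribose genes, medians ran from 3.07 FPKM for the ubiquitin ligase Dtx3l to 34.0 FPKM for the ubiquitin-like modifier Isg15. In antigen presentation they ran from 2.07 FPKM for Nlrc5, the transactivator of class I genes, to 36.5 FPKM for Tap1, a subunit of the peptide transporter.

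The median log2 fold changes against vehicle are given by role. For the 5 factors of transcription they were 0.09 with AngII, −0.15 with TRV023 and −0.15 with losartan. Irf1, the factor most directly induced by interferon gamma, was 40.8, 48.2 and 26.4 FPKM in vehicle, and the values of every drug lay within or near this range (26.6 to 49.7 FPKM). Irf9, the DNA-binding subunit of the ISRE complex, was 25.8 to 39.0 FPKM over all libraries, and Stat2, its partner, was 19.9 to 39.3 FPKM. Irf8, which directs the development of myeloid and dendritic cells, was 35.8, 24.4 and 35.03 FPKM in vehicle and 37.8, 13.9 and 25.2 FPKM with losartan. For these genes every drug group overlapped vehicle.

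The 13 antiviral models had medians of 0.00 with AngII, 0.18 with TRV023 and −0.01 with losartan. Oas1a, which makes the messenger that activates RNase L, was 8.27, 5.25 and 10.04 FPKM in vehicle and 11.8, 14.2 and 7.19 FPKM with TRV023. Ifit3, an adaptor of the Ifit complex, was 9.18, 8.94 and 15.1 FPKM in vehicle, and it reached 20.6 FPKM in Trv_917 and 18.6 FPKM in Los_964. Its highest libraries were thus not those of Mx1. Eif2ak2 (PKR), the kinase that halts translation on double-stranded RNA, was 11.57, 12.8 and 10.2 FPKM in vehicle and 10.1, 6.64 and 8.99 FPKM with AngII.

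The 7 ubiquitin and ADP-ribose models had medians of −0.40, −0.28 and −0.07 in the same order. Trim25, the ligase that activates RIG-I, was 7.59, 8.93 and 4.999 FPKM in vehicle, 6.47, 2.47 and 2.22 FPKM with AngII and 11.03, 3.06 and 5.68 FPKM with losartan. Dtx3l was 3.90, 3.199 and 5.13 FPKM in vehicle and 3.202, 1.01 and 1.84 FPKM with AngII. Isg15 itself was 28.7, 25.2 and 37.6 FPKM in vehicle and 28.2, 37.6 and 42.4 FPKM with AngII, the 1 model of this role above vehicle on average. Usp18, which removes Isg15 and blocks the type I receptor, was 3.98 to 12.2 FPKM over all libraries, with both extremes in the TRV023 group.

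The antigen presentation and GTPase models had medians of 0.29, 0.25 and 0.07. Beside the transporter, Gbp2, a GTPase that attacks the vacuoles of pathogens, was 32.4, 42.3 and 36.1 FPKM in vehicle and 33.9, 34.9 and 33.3 FPKM with AngII. Its relative Gbp5 was 7.79, 9.64 and 9.98 FPKM in vehicle and 14.6, 11.2 and 9.81 FPKM with TRV023. Of the other induced proteins, Ifi27 was 469, 422 and 715 FPKM in vehicle and 540.2, 719.99 and 771 FPKM with AngII. All of these groups overlapped.

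**Figure D2:**
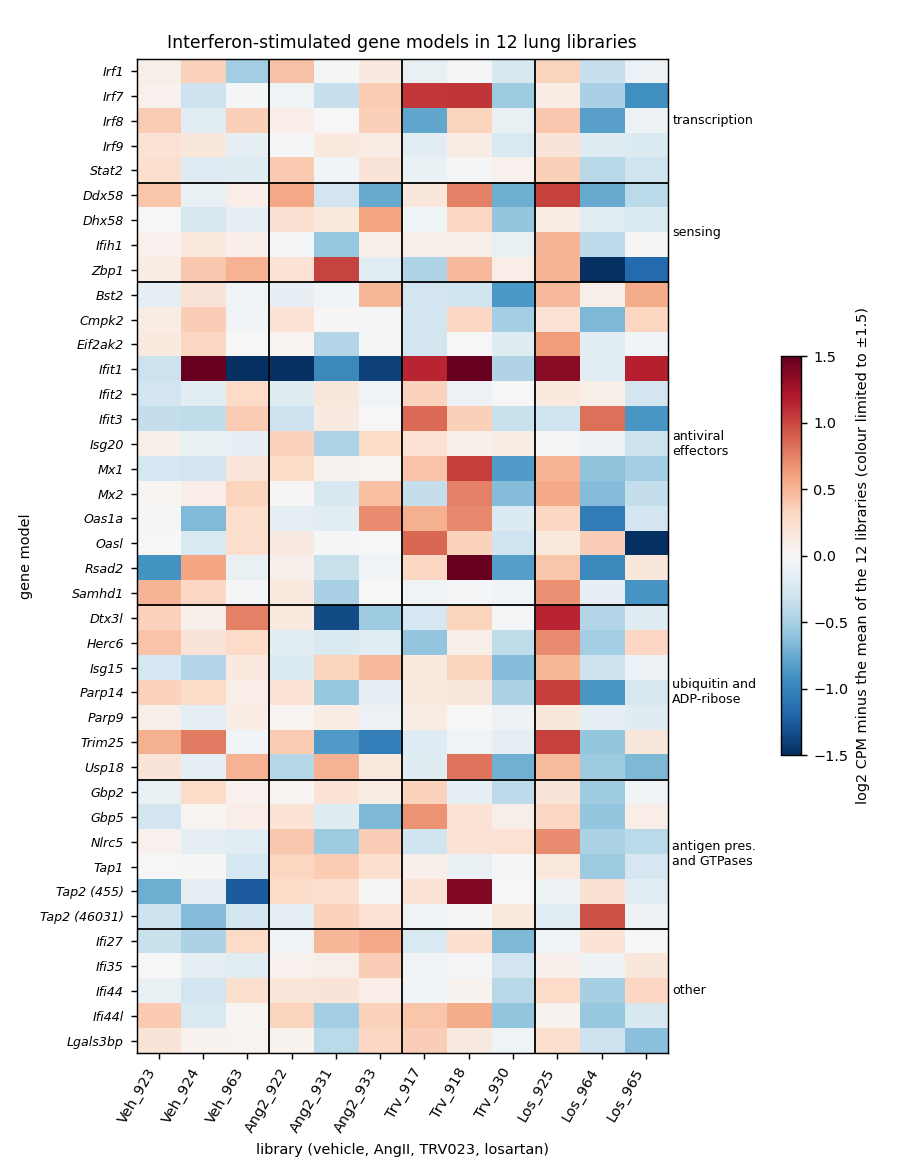
Each of the 40 gene models (rows, by role) in the 12 libraries (columns, by group), coloured by log2 CPM minus the mean of the 12 libraries, with colour limited to ±1.5; Tap2 is shown with the last digits of its 2 gene models. Los_925 is above the mean for 35 models, whereas Los_964 and Trv_930 are below it for most.

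The libraries of a group differed most with TRV023 and losartan. The mean over the 40 models, as the log2 CPM difference from the mean of the 12 libraries, was 0.02, 0.02 and 0.00 in the vehicle libraries. It was 0.03, −0.11 and 0.05 in the AngII libraries. With TRV023 it was 0.09 in Trv_917, 0.36 in Trv_918 and −0.30 in Trv_930. With losartan it was 0.39 in Los_925, −0.35 in Los_964 and −0.21 in Los_965. The lowest and highest library of a group thus lay 1.01-fold apart in vehicle, 1.12-fold with AngII, 1.57-fold with TRV023 and 1.66-fold with losartan. The high and the low library of the TRV023 and losartan groups enclosed all vehicle and AngII libraries.

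This spread was present gene by gene. The median SD of log2 CPM among 3 libraries was 0.23 for the members and 0.23 for all 15662 genes in vehicle, and 0.29 and 0.28 with AngII. With TRV023 it was 0.36 for the members and 0.25 for all genes, and with losartan 0.49 and 0.32. The SD of 30 members with losartan and of 25 with TRV023 exceeded the median of all genes, as did 20 in vehicle and 20 with AngII. Los_925 was the highest of the 12 libraries for 12 members (30.0%, against 9.29% of all genes) and Trv_918 for 9 (22.5%, against 8.17%). Los_964 was the lowest for 11 members (27.5%, against 12.4% of all genes), Trv_930 for 10 (25%, against 5.75%) and Los_965 for 6 (15%, against 8.82%). The median share of a member's variance that lay within groups was 80.7%, against 71.8% for all genes. These are descriptions of the libraries, and no test of the spread was made.

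Mx1, a dynamin-like GTPase that blocks viral nucleocapsids, shows the pattern. Its FPKM was 7.16, 7.01 and 9.68 in vehicle and 9.83, 7.73 and 7.77 with AngII. It was 11.2, 18.0 and 4.65 with TRV023 and 12.7, 5.02 and 5.80 with losartan. Both extremes lay in the TRV023 group, in Trv_918 and Trv_930. Rsad2, or viperin, which makes a chain-terminating nucleotide, was 1.83, 5.16 and 3.13 FPKM in vehicle and 4.11, 10.9 and 1.88 FPKM with TRV023. Parp14, an ADP-ribosyltransferase, was 7.61, 1.73 and 2.93 FPKM with losartan, and its 2 extremes lay within that group. The ratio of the highest to the lowest library was 2 or more for 32 models and 4 or more for 10.

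Other measures also differed between these libraries. The leukocyte mean was 0.28 in Trv_918, −0.21 in Trv_930, 0.05 in Los_925, −0.03 in Los_964 and −0.44 in Los_965. The mean of 10 T and NK cell markers was 0.45 in Los_925, −0.80 in Los_964 and −0.19 in Los_965. It was −0.35 in Trv_917, −0.16 in Trv_918 and 0.21 in Trv_930. The mean of 9 macrophage markers was 0.13 in Los_925, 0.46 in Los_964 and −1.19 in Los_965. It was 0.35 in Trv_917, 0.47 in Trv_918 and 0.01 in Trv_930. The deviation of a gene in a library correlated with gene length, with a Spearman rho across genes of 0.20 in Los_925, −0.23 in Ang2_931 and −0.18 in Ang2_933. Los_964, Los_965 and Veh_963 also have animal numbers of another series than Los_925, and what the series stands for is not stated. With that series as a term, the median log2 fold change of the members with losartan was 0.02, against −0.05 without it. The part of each in the spread was not tested.

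**Figure D3:**
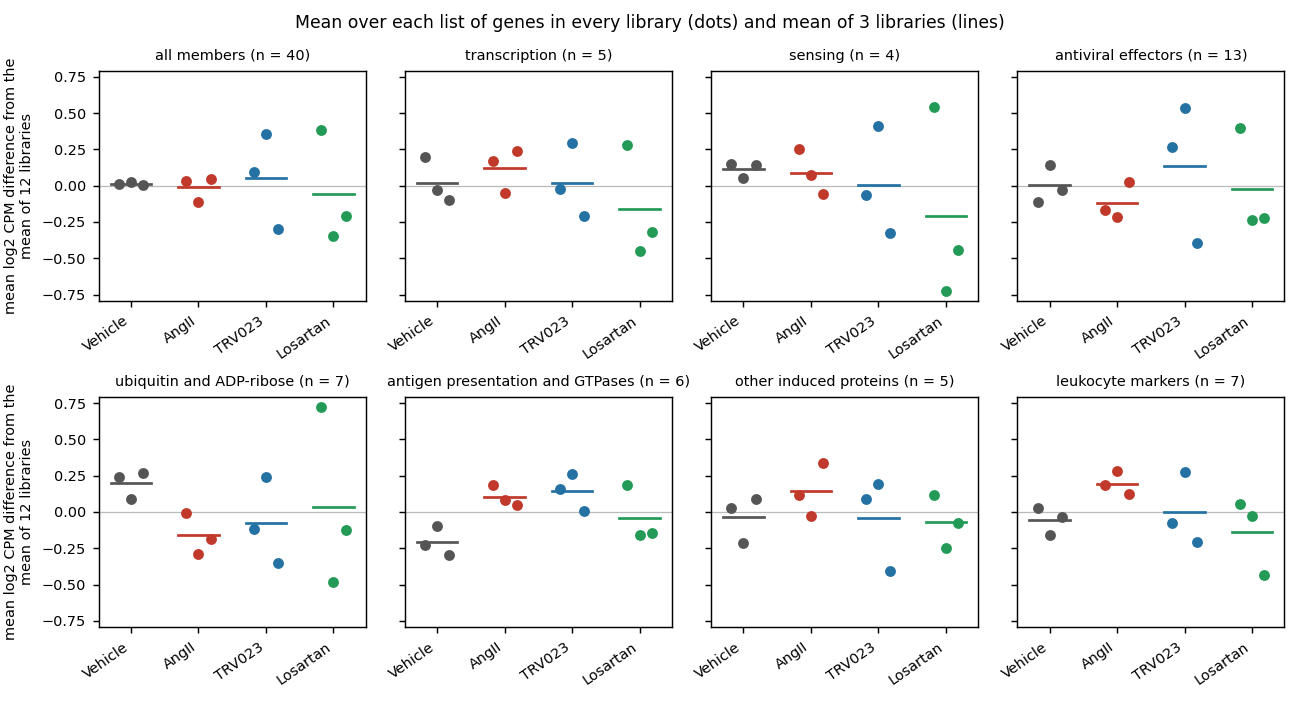
Mean log2 CPM difference from the mean of the 12 libraries (y axis) for all members, for each role and for leukocyte markers, with each library as a dot and the mean of 3 libraries as a line, by group (x axis). For all members the vehicle dots lie together near 0, and the losartan dots run from −0.35 to 0.39.

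The members varied together across the libraries. The mean Pearson r over the 780 pairs of gene models was 0.25 across the 12 libraries, and 0.32 with the group means removed, against 0.00 over pairs of all genes. Of the pairs, 618 (79.2%) had r above 0 and 185 (23.7%) had r above 0.5. The points are libraries that share their depth and cell makeup with all genes measured in them, and no p is given. The models most alike to the mean of the others were Mx1 (r = 0.88), Mx2 (0.86), Parp14 (0.82) and Ddx58 (0.82). At the other end stood the Tap2 model ENSRNOG00000046031 (−0.52), Ifit3 (−0.02), Ifit2 (0.08), Ifi27 (0.09), Bst2 (0.15) and Ifit1 (0.19), so that the list did not move as a single block. Members with an ISRE core had a mean pairwise r of 0.19 (19 models). Both Tap2 models are among them, ENSRNOG00000046031 by its symbol alone. Those with a promoter entry and no core had 0.32 (12 models).

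Several members lie beside each other in the genome, and neighbours were alike to different degrees. Ifit2 and Ifit3, 5508 bases apart on chromosome 1, had r = 0.73, whereas Ifit1 and Ifit3, 32730 bases apart, had r = −0.03. Mx1 and Mx2 on chromosome 11 had r = 0.76. Rsad2 and Cmpk2, which makes the nucleotide that viperin uses, lie 14922 bases apart on chromosome 6 and had r = 0.66. Parp9 and its partner Dtx3l lie 1212 bases apart and had r = 0.30. The Ifit, Oas, Mx, Gbp and Tap2 models have close paralogs, and the way reads were shared between them is not given in the sources used here. Oas1a also overlaps Oas1h and Oas1f on the opposite strand, and without a stated strand setting their reads cannot be told apart.

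Outside all lists, 8 genes were most like the mean of the members over the 12 libraries, among 14085 genes with a mean of at least 1 CPM. They were Pik3ap1 (r = 0.93), an adaptor of PI3 kinase in immune cells, Trib1 (0.91), Dock8 (0.90), Cysltr1 (0.90), Samd9l (0.90), LOC361635 (0.90), Kpna6 (0.90) and Cbwd1 (0.89). In all, 52 genes had r above 0.8. The 8 were selected for this likeness, so their r is a description.

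With AngII, no member passed an adjusted p under 0.05. By edgeR, 0 of 40 were called, against 2 of 15059 genes tested (0.0133%), and 0 of 40 by DESeq2 (all genes 1.45%) and by limma-voom (0.00664%). At an unadjusted p under 0.05, 4 members (10%) were higher and 2 (5%) were lower, against 6.54% and 5.39% of all genes. The higher ones were Tap1, both Tap2 models and Dhx58, and the lower ones were Herc6 and Ifit1. These shares lie near the background. The median log2 fold change of the members was 0.00, against −0.02 for all genes, with 22 members above 0 and 18 below. The median half-width of the 95% interval of a member was 0.47 on the log2 scale. Without Veh_924 or without Ang2_931, 3 members had an unadjusted p under 0.05 (all genes 9.04% and 6.60%), and without Ang2_922 there were 9 (all genes 20.4%).

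Genes of the peptide transporter and Herc6 had the smallest p values. Herc6, the ligase that attaches Isg15 to proteins in rodents (ENSRNOG00000023969, chromosome 4, 153429563 to 153471906 in the deposited coordinates, whose build is not named), was 11.2, 9.48 and 10.1 FPKM in vehicle and 6.99, 6.17 and 6.59 FPKM with AngII. The groups did not overlap. The log2 fold change was −0.51 (SE 0.13), a 1.42-fold lower level, with an adjusted p of 0.325 by edgeR. Tap1, on chromosome 20 from 6058583 to 6069216, was 36.5, 36.5 and 30.0 FPKM in vehicle and 42.9, 40.9 and 38.1 FPKM with AngII, again without overlap. Its log2 fold change was 0.38 (SE 0.12), with an adjusted p of 0.372 by edgeR.

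Tap2 encodes the second subunit of the transporter that loads peptides onto class I molecules. The model ENSRNOG00000046031 (chromosome 20, 7259451 to 7272501) was 10.3, 8.03 and 10.4 FPKM in vehicle and 11.0, 14.0 and 13.1 FPKM with AngII, a log2 fold change of 0.55 (SE 0.19). The model ENSRNOG00000000455 (chromosome 20, 6075092 to 6089133), which lies next to Tap1, was 2.07, 3.10 and 1.42 FPKM in vehicle and 3.98, 3.58 and 3.11 FPKM with AngII, a log2 fold change of 0.83 (SE 0.34). Both models were higher in every AngII library than in any vehicle library, and their adjusted p values by edgeR were 0.372 and 0.399. Over all members, 3 models (7.5%) were without overlap and higher, against 4.95% of all genes. A further 3 (7.5%) were without overlap and lower, Herc6, Eif2ak2 and Ifih1, against 16.5% of all genes. FPKM is scaled to the library total, and the normalization of the fold changes is not.

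Of the 6 antigen presentation and GTPase models, 5 had a log2 fold change above 0 with AngII, and Gbp5 was at −0.15. The 3 of them with an unadjusted p under 0.05 by edgeR were Tap1 and both models of Tap2, whereas 6.54% of all genes were higher at that p. As log2 CPM difference from the mean of the 12 libraries, the mean of the 6 antigen presentation and GTPase models was 0.05 to 0.18 with AngII, 0.01 to 0.26 with TRV023, −0.16 to 0.19 with losartan and −0.30 to −0.10 in vehicle. The AngII and the TRV023 libraries all lay above the vehicle libraries. Tap2 enters this mean with both of its gene models, which were without overlap and higher with AngII and with TRV023. Gbp2, Gbp5 and Nlrc5 overlapped vehicle with both drugs, and Tap1 overlapped vehicle with TRV023. The mean of the 7 ubiquitin and ADP-ribose models was −0.29 to −0.01 with AngII and 0.09 to 0.27 in vehicle, without overlap, with 6 of 7 fold changes below 0 and Isg15 at 0.38. It was −0.35 to 0.24 with TRV023 and −0.48 to 0.72 with losartan. No p is given for a mean over members.

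**Figure D4:**
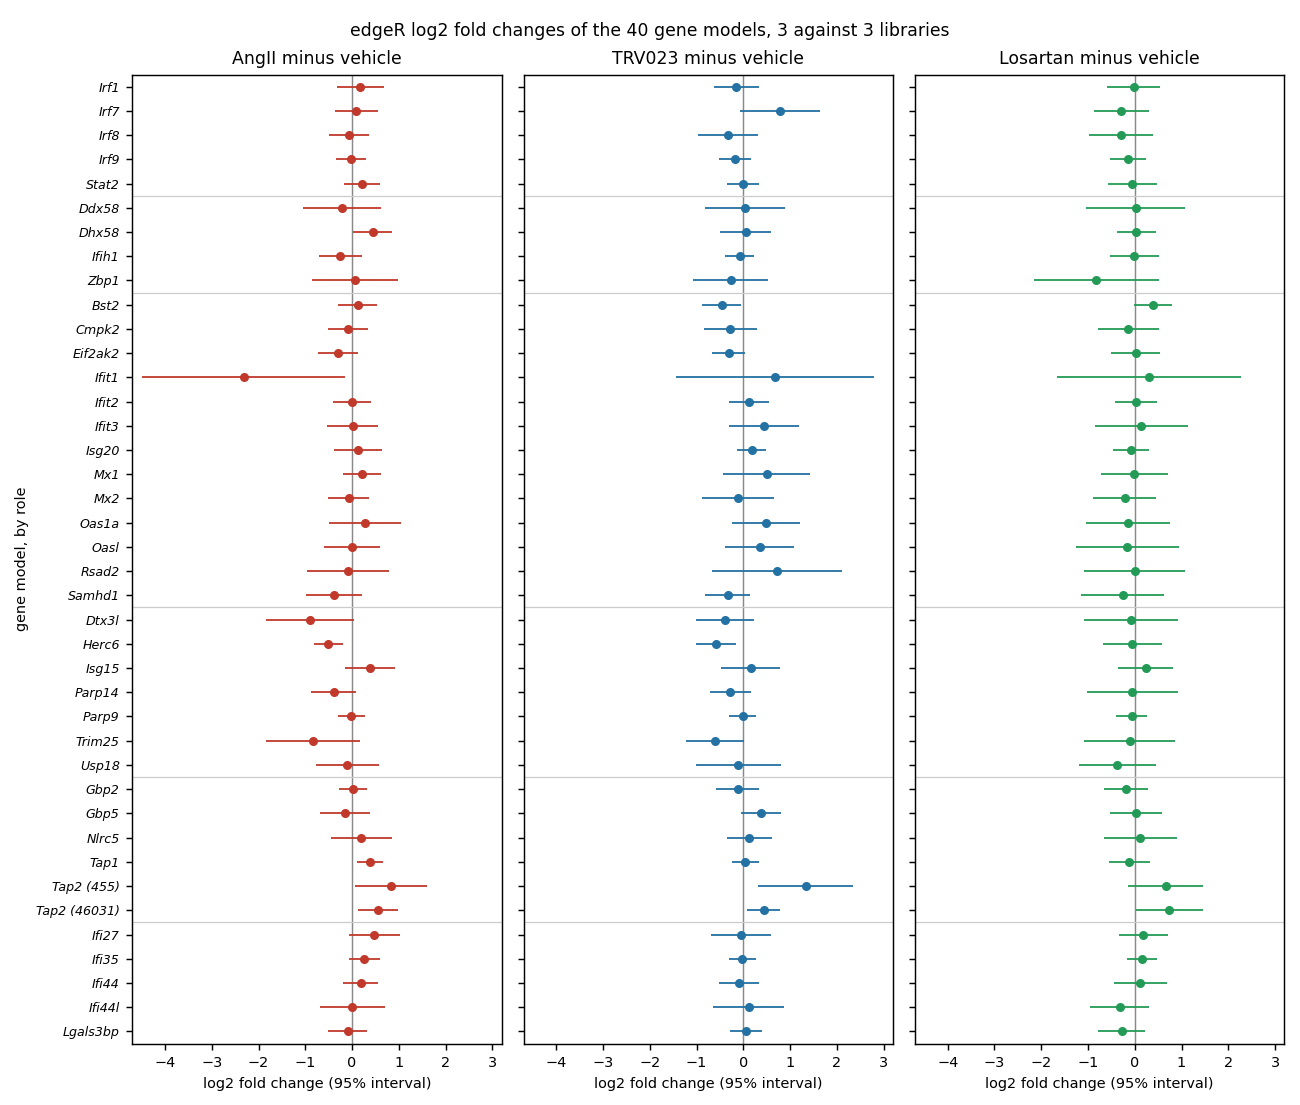
Log2 fold change of each gene model from edgeR (x axis, dots) with its 95% interval (lines) for each drug minus vehicle, 3 against 3 libraries, ordered by role. Intervals that exclude 0 are few in each panel, and Ifit1 has the widest (−4.48 to −0.14 with AngII).

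With TRV023, no member passed an adjusted p under 0.05 either. By edgeR, 0 of 40 were called, against 1 of 15193 genes (0.00658%), and 0 of 40 by DESeq2 (all genes 0.724%) and by limma-voom (0%). At an unadjusted p under 0.05, 2 members (5%) were higher and 2 (5%) were lower, against 2.61% and 2.96% of all genes. The median log2 fold change was −0.01 for the members and −0.00 for all genes, with a median interval half-width of 0.51. The higher ones were both Tap2 models and the lower ones were Herc6 and Bst2. The members with such a p depended on the library left out. Without Trv_918, 7 members had an unadjusted p under 0.05 and 6 of them were lower (all genes 6.42%). Without Trv_930, 7 members did and 6 of them were higher, among them Irf7, Mx1, Oas1a and Ifit3 (all genes 6.08%). Without Veh_963 there were 8, of which 5 were lower (all genes 8.13%).

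Herc6 and the Tap2 models again had the smallest p values, on the same vehicle libraries as in the comparison with AngII. Herc6 was 5.32, 9.05 and 6.28 FPKM with TRV023, below all 3 vehicle libraries, with a log2 fold change of −0.58 (SE 0.19) and an adjusted p of 0.713 by edgeR. The Tap2 model ENSRNOG00000000455 was 3.86, 9.39 and 3.43 FPKM, with Trv_918 far above the others, and its log2 fold change was 1.33 (SE 0.44, adjusted p = 0.723), and 0.76 without Trv_918. The other Tap2 model was 11.99, 12.9 and 13.9 FPKM, with a log2 fold change of 0.43 (SE 0.15, adjusted p = 0.787). Both models were higher than vehicle in 3 of 3 libraries.

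Bst2 was lower with TRV023. It was 279.9, 349.9 and 294 FPKM in vehicle and 245, 256 and 167 FPKM with TRV023, without overlap, a log2 fold change of −0.47 (SE 0.18) and an adjusted p of 0.838 by edgeR, and it was −0.30 without Trv_930. Herc6 and Bst2 (5%) were the members without overlap and lower, against 5.23% of all genes. The 2 Tap2 models and Isg20, an exonuclease, were without overlap and higher (7.5%, against 4.99% of all genes), with Isg20 at 32.4 FPKM in both its lowest TRV023 and its highest vehicle library. Irf7 was 53.4, 56.9 and 18.0 FPKM with TRV023 and 27.7, 21.1 and 25.8 FPKM in vehicle, so that 2 of its libraries lay above vehicle and 1 below.

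**Figure D5:**
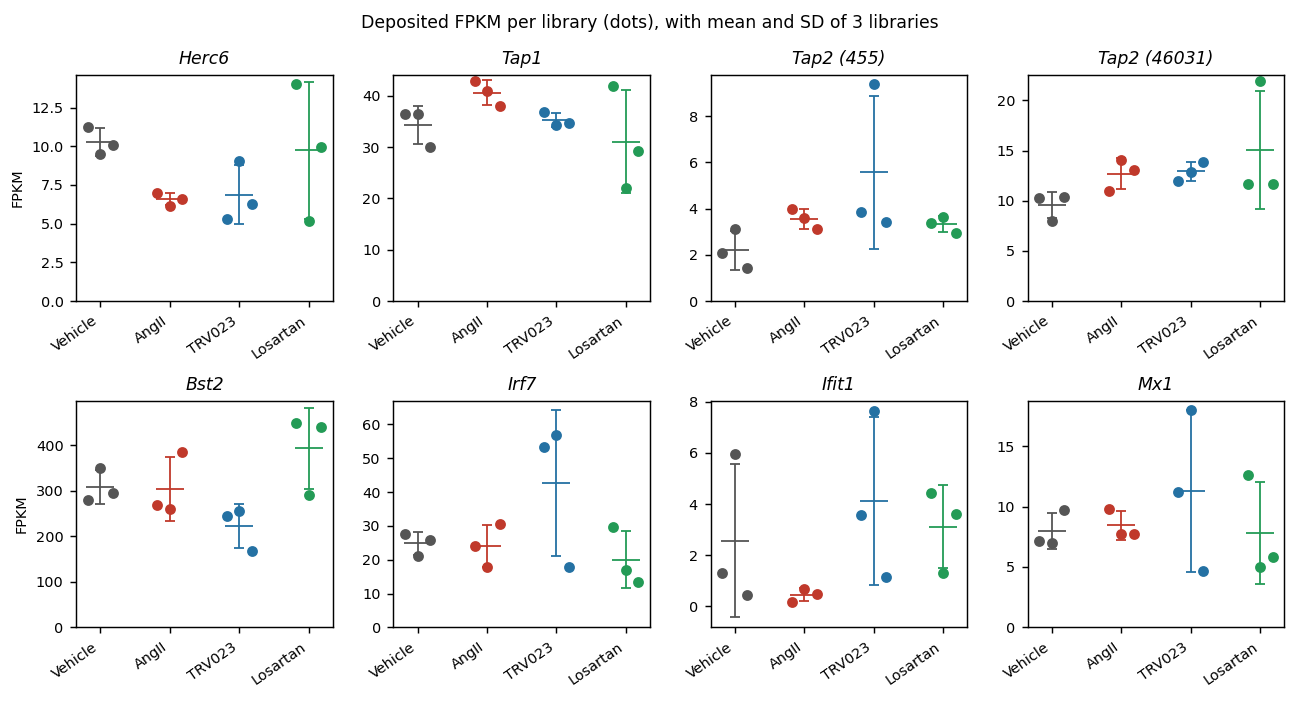
Deposited FPKM (y axis) of 8 gene models in each library (dots) by group (x axis), with the mean and SD of 3 libraries; Tap2 is shown with the last digits of its 2 gene models. Herc6 lies lower with AngII and TRV023 than in vehicle and spans 5.20 to 14.1 with losartan, and Mx1 and Irf7 spread widely with TRV023.

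With losartan, 0 of 40 members were called by edgeR, as were 0 of 15156 genes (0%). DESeq2 called 0 of 40 (all genes 0.0396%), and limma-voom 0 of 40 (0%). At an unadjusted p under 0.05, 1 member (2.5%) was higher, against 0.686% of all genes, and 0 were lower, against 0.963%. The median log2 fold change was −0.05 for the members and 0.01 for all genes, with a median interval half-width of 0.63, the widest of the comparisons with vehicle. Los_925 weighed heavily. Without it, 8 members had an unadjusted p under 0.05, and 7 of them were lower, namely Ddx58, Irf7, Lgals3bp, Mx2, Parp14, Usp18 and Zbp1, against 5.47% of all genes in either direction. The median of the members was then −0.31, and it was 0.12 without Los_964. Without Veh_923 the count was 0 (all genes 1.33%) and without Veh_924 it was 3 (all genes 2.01%).

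The Tap2 model ENSRNOG00000046031 had the smallest p with losartan. It was 11.7, 21.9 and 11.7 FPKM, above vehicle in 3 of 3 libraries and highest in Los_964, with a log2 fold change of 0.74 (SE 0.31) (adjusted p = 0.9999 by edgeR), and 0.28 without Los_964. It was the 1 member without overlap and higher (2.5%, against 1.96% of all genes), and 0 were lower (all genes 3.62%). Bst2 was 448, 291 and 440.5 FPKM, with a log2 fold change of 0.39 (SE 0.17), and its lowest library lay within the vehicle range. The Tap2 model ENSRNOG00000000455 was 3.39, 3.62 and 2.96 FPKM (log2 fold change 0.66, SE 0.34), and its fold change was 0.42 without Veh_963 and 0.99 without Veh_924. Zbp1 was 2.75, 0.516 and 0.759 FPKM with losartan and 2.02, 2.45 and 2.65 FPKM in vehicle (log2 fold change −0.83, SE 0.58), with Los_925 above and the other two below vehicle, and the fold change was −1.79 without Los_925 and −0.47 without Los_964. The adjusted p of each was 0.9999 by edgeR.

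The 3 comparisons share the vehicle libraries, so that a high or low vehicle library enters each of them. The Tap2 model ENSRNOG00000000455 was 1.42 FPKM in Veh_963, its lowest value in any library, and the other model was 8.03 FPKM in Veh_924, again its lowest. Without Veh_963 the log2 fold change of the first model with TRV023 remained above 0, as it did in each alternative (0.76 to 1.67).

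The drugs act at a single receptor and were given at different doses, so the comparisons between them are of these treatments and not of potency. All 12 libraries entered 1 fit of 15662 genes. No member was called by edgeR in any of the 3 comparisons between drugs (0 of 40 each), and the share of all genes called was 0% in each. At an unadjusted p under 0.05, AngII against TRV023 had 2 members higher (5%, all genes 5.43%) and 1 lower (2.5%, all genes 5.43%). AngII against losartan had 1 higher (2.5%, all genes 4.69%) and 1 lower (2.5%, all genes 4.49%). TRV023 against losartan had 1 higher (2.5%, all genes 2.29%) and 1 lower (2.5%, all genes 2.27%). DESeq2 called 1 member between AngII and TRV023 (all genes 1.46%) and 0 in the other two (0.677% and 0.083%), and limma-voom called 0 in each (0%). Median log2 fold changes of the members were 0.01, 0.13 and 0.04 in this order, and medians of all genes were −0.01, −0.02 and −0.01. Without Los_925 the median of AngII against losartan was 0.32 and that of TRV023 against losartan was 0.33. Without Trv_918 the median of TRV023 against losartan was −0.14.

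Ifit1 had the largest difference between AngII and each of the other drugs among the members. It was 0.192, 0.691 and 0.501 FPKM with AngII, 3.58, 7.63 and 1.15 FPKM with TRV023 and 4.44, 1.30 and 3.62 FPKM with losartan. Every AngII library lay below every TRV023 and losartan library, whereas the vehicle libraries spread from 0.430 to 5.97 FPKM. The log2 fold change of AngII against TRV023 was −2.97 (SE 0.95), a 7.85-fold lower level with a 95% interval of −5.03 to −0.91, and the adjusted p was 0.309 by edgeR and 0.0405 by DESeq2. Over all alternatives the adjusted p of this difference was 0.0405 to 0.715. Against losartan the log2 fold change was −2.60 (SE 0.94, adjusted p = 0.475 by edgeR).

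Bst2 and Irf7 had the smallest p values between TRV023 and losartan. Bst2 was lower with TRV023 by 1.81-fold, a log2 fold change of −0.85 (SE 0.21) with an adjusted p of 0.920 by edgeR, and each TRV023 library lay below each losartan library. It was also lower with TRV023 than with AngII, at 268, 259.8 and 385 FPKM with AngII, and the log2 fold change of AngII against TRV023 was 0.60 (SE 0.21), and 0.37 without Ang2_933. Irf7 was 29.5, 16.8 and 13.5 FPKM with losartan, and TRV023 against losartan gave a log2 fold change of 1.07 (SE 0.37, adjusted p = 0.998) with overlapping groups, since Trv_930 lay within the losartan range. Tap1 was 36.8, 34.3 and 34.8 FPKM with TRV023 and 41.9, 22.0 and 29.3 FPKM with losartan. Its log2 fold change was 0.34 (SE 0.16) for AngII against TRV023 and 0.50 (SE 0.16) for AngII against losartan, with adjusted p values of 0.469 and 0.440 by edgeR, and without overlap only against TRV023.

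Smaller differences completed the comparisons between drugs. Ifi35, which dimerizes with Nmi, gave 0.30 (SE 0.13) for AngII against TRV023 on the log2 scale, 0.19 without Ang2_933 and 0.16 with library totals. Dhx58 gave 0.42 (SE 0.22) and Dtx3l gave −0.82 (SE 0.45) for AngII against losartan. Without Ang2_933 Dhx58 was at 0.28, and Dtx3l was at −0.15 without Los_925, −0.52 without Ang2_931 and −1.26 without Ang2_922. For TRV023 against losartan, Herc6 gave −0.52 (SE 0.25), and it was at −0.23 without Los_925 and −0.79 without Los_964. The Tap2 model ENSRNOG00000000455 gave 0.68 (SE 0.37), and 0.11 without Trv_918. All adjusted p values of these differences were above 0.05, and their groups overlapped.

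Other genes of the pathway were read from lists chosen for their known roles. Their counts stand beside the shares of all genes at an unadjusted p under 0.05, which were 6.54% higher and 5.39% lower with AngII, 2.61% and 2.96% with TRV023 and 0.686% and 0.963% with losartan. Of 11 interferon ligands, 2 were listed in the tables, Ifne and Ifng, and neither passed the filter. Ifng stood at 0 to 0.609 FPKM and Ifne at 0 to 0.216 FPKM. All 12 genes of the receptors and Jak-Stat list were tested. Their median log2 fold change was −0.01 with AngII, 0.02 with TRV023 and −0.02 with losartan. Of these only Tyk2, a Jak kinase of the type I receptor, had an unadjusted p under 0.05, with AngII (log2 fold change 0.28, SE 0.12, adjusted p = 0.414 by edgeR).

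Among 15 sensors and adaptors tested, 3 were higher and 1 lower with AngII at an unadjusted p under 0.05 (all genes 6.54% and 5.39%), 1 was higher with TRV023 and 0 had such a p with losartan. Unc93b1, which carries Toll-like receptors to endosomes, was 61.4 ± 5.36 FPKM in vehicle and 87.4 ± 1.05 FPKM with AngII (SD, n = 3). Its log2 fold change was 0.64 (SE 0.12) with AngII and 0.36 (SE 0.14) with TRV023, without overlap in either, and the adjusted p values were 0.295 and 0.822 by edgeR. Irf5, a factor downstream of these receptors, gave 0.58 (SE 0.16, adjusted p = 0.328) and Tlr7, a receptor of single-stranded RNA, gave −0.54 (SE 0.18, adjusted p = 0.372) with AngII. Of 11 negative regulators, 1 was higher with AngII at that p, Socs1, an inhibitor of Jak kinases (log2 fold change 0.70, SE 0.24, adjusted p = 0.372 by edgeR), and 0 with TRV023 or losartan. Isg15 and Usp18 are in this list as well as among the members.

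The interferon gamma and antigen presentation list covers class II molecules and the immunoproteasome. Of 20 tested, 5 were higher and 1 lower with AngII at an unadjusted p under 0.05 (all genes 6.54% and 5.39%), with a median log2 fold change of 0.18. Psmb9, an immunoproteasome subunit, gave 0.53 (SE 0.11, adjusted p = 0.295 by edgeR) and RT1-Db1, a class II chain of antigen-presenting cells, gave 0.83 (SE 0.19, adjusted p = 0.295). With TRV023, 2 of 19 were lower (all genes 2.96%), among them RT1-Ba, another class II chain (−0.96, SE 0.24, adjusted p = 0.578), and 0 of 20 had such a p with losartan. Of 42 further interferon-stimulated genes, 4 were higher and 2 lower with AngII (all genes 6.54% and 5.39%), 2 higher and 1 lower with TRV023 (2.61% and 2.96%) and 0 with losartan (0.686% and 0.963%), and their median log2 fold changes were −0.01, −0.07 and −0.00. Of these, Slfn3 was 0.61 (SE 0.17) higher on the log2 scale with AngII (adjusted p = 0.338 by edgeR), with overlapping groups. None of the genes of these lists was called by edgeR.

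Markers of other cells differed beside these values. With AngII, 6 of 7 leukocyte markers lay above vehicle, with Coro1a at 0.64 (SE 0.13) on the log2 scale and Laptm5 at 0.42 (SE 0.13), and their median was 0.29. All 9 T and NK cell markers tested were above 0 (median 0.49), as were all 5 B and plasma cell markers tested (median 0.80). Gzmb, the other of 10 T and NK cell markers listed, did not pass the filter in this comparison. It was 0.0362, 0.289 and 0.236 FPKM with AngII and 0.510, 0.352 and 0.270 FPKM in vehicle. All 5 ciliated cell markers tested were below 0 with AngII (median −1.20). With TRV023 all 8 macrophage and all 8 neutrophil markers tested were above 0 (medians 0.27 and 1.35). With AngII 6 of 8 macrophage and 7 of 8 neutrophil markers tested were above 0 (medians 0.25 and 0.74). Of the macrophage markers, 4 of 9 tested were above 0 with losartan (median −0.18). All 6 conventional dendritic cell markers were below 0 with TRV023 (median −0.33), as were 5 of 7 plasmacytoid dendritic cell markers tested (median −0.25). Of the conventional markers, 5 of 6 were below 0 with losartan (median −0.38) and 4 of 6 with AngII (median −0.27). Of the plasmacytoid markers tested, 4 of 7 were below 0 with losartan (median −0.29) and 2 of 7 with AngII (median 0.12). With losartan all 5 ciliated cell markers tested were below 0 (median −0.68) and 7 of 8 neutrophil markers were above 0 (median 0.74). The losartan libraries did not share this neutrophil direction. As log2 CPM difference from the mean of the 12 libraries, the neutrophil mean was −0.3094 in Los_925, 0.7776 in Los_964 and −1.501 in Los_965. In vehicle it was −0.87392, −0.31583 and −0.42152, so that Los_965 lay below every vehicle library and Los_925 lay close to the highest. Siglech, which defines plasmacytoid dendritic cells in rodents, did not pass the filter and was at 0 to 0.698 FPKM, and Irf8 and Bst2 of that list are themselves members. The part of these cells in the values of the members was not tested.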

How the data were processed

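Lung RNA from 12 MCT rats was sequenced by a company. The aligner, counting tool, genome build, annotation and strand setting remain not given in the sources used here. In 3 tables, each with 1 drug and the vehicle group, the authors deposited whole read counts per gene and FPKM values. The vehicle values were identical in all tables. The tables also hold the authors' own fold changes and p-values, which were not used. FPKM are printed as deposited.

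Counts were fitted in edgeR 4.0.16 (R 4.3.3) with filterByExpr, TMM, glmQLFit and glmQLFTest, with 6 libraries for each drug against vehicle and 12 libraries for drug against drug. P-values were adjusted by Benjamini-Hochberg over all genes tested, and a gene was called under 0.05. The scripts were tested on simulated data. Alternatives were DESeq2 1.42.0, limma-voom, limma 3.58.1 on log2(FPKM + 1) where mean FPKM reached 1, RLE factors, library totals, no filter, a minimum of 10 counts per library, a joint fit of all groups, omission of each library, the animal number series as a term for losartan, and removal of the length trend (lowess, span 0.3). A prior count of 2 entered log2 CPM. Groups did not overlap where all FPKM of a group lay above all of the other. Labels give each library its own number, which was read as that of a separate animal, although the labels do not say so.

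The members and lists were chosen with earlier results of these data known. Fold changes are given for the 4 members with the smallest p in each comparison, up to 3 genes of each pathway list, and the leukocyte markers Coro1a and Laptm5, which were named after their values were seen. Promoter sequences are from RefSeq (GRCr8).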

Additional observations from a re-analysis of the deposited data

How the results depend on the processing

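No member was called in any comparison under any alternative, except Ifit1 in AngII against TRV023 by DESeq2, which made that count 1 (log2 fold change −2.98, adjusted p = 0.0405). No named member changed sign. The member medians, which are near 0, did change sign under some alternatives, and most of their moves were smaller than the spread between libraries. The cause of each move was not tested unless fewer libraries entered. The 6 members at an unadjusted p under 0.05 with AngII became 3 with all 4 groups in 1 fit. The 1 with losartan became 2 by DESeq2, 0 by limma-voom, 0 by limma on log2(FPKM + 1) and 0 with the animal number series as a term. With each library left out in turn, these counts ran from 3 to 9 with AngII, 3 to 8 with TRV023 and 0 to 8 with losartan, while the share of all genes ran from 6.60% to 20.4%, 4.27% to 8.13% and 1.33% to 5.47%. The median log2 fold change of the members with AngII was −0.11 by limma on log2(FPKM + 1) and −0.13 with library totals in place of TMM, which moved the median of all genes to −0.16. Removing each library's trend with gene length, an alternative chosen after seeing the data, left the counts at 6, 4 and 1. Leaving out libraries gave member medians of −0.00 to 0.06 with AngII, −0.11 to 0.09 with TRV023 and −0.31 to 0.12 with losartan, and of −0.05 to 0.11 for AngII against TRV023, 0.04 to 0.32 for AngII against losartan and −0.14 to 0.33 for TRV023 against losartan. No paired analysis was possible because the animal numbers are not shared between groups. With 3 libraries a group, the median interval of a member spanned 0.47 to 0.63 on the log2 scale to either side, which limits what could be detected.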
